A study of Mus musculus with 14 samples.

Results

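Collagen genes were followed across 14 mouse cell samples, each measured once on an Affymetrix expression array. The members were all genes whose symbol in the platform annotation was Col, a number, a and a number, and each was read from its brightest probe set by mean over the 14 arrays. This gave 42 collagen genes with 82 probe sets, out of 18194 genes with 45101 probe sets in the whole series. The level of a gene is given as log2 signal, the scale on which the authors deposited their summaries, so that a difference of 1 is a 2-fold difference.

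The series asked how partial induced pluripotent stem cells (partial iPSCs), which stopped on the way from fibroblast to pluripotency, pass to genuine iPSCs. The 2i iPSCs came from partial clones 2B1 and 5C5 (female, C57BL/6) exposed to 2i, in which the kinases MEK and GSK3 are inhibited, with 1 array per clone. Embryonic stem cells (ESCs) in leukemia inhibitory factor (LIF) and serum came from 2 lines with 1 array each, Nanog-GFP (male, C57BL/6) and the wild-type EBRTcH3 (male, 129sv). Untreated partial iPSCs of 2B1 and 5C5, in LIF and serum, gave 1 array per clone. Mouse embryonic fibroblasts (MEFs) of Nanog-GFP transgenic C57BL/6 mice, of mixed sex and grown without LIF, gave 1 array, with an embryo age of 12.5 dpc in the sample title and 13.5 dpc in the series text. The other 7 arrays held 2B1 partial iPSCs in LIF and serum after retroviral introduction of Cnot1, Cnot2, Cnot3, the 3 together (the Cnot123 array), Trim28, Nanog or empty vector. Each of these conditions was 1 clone on 1 array. Medium and cell state differed together between 2i and partial iPSCs. Sex, line and origin differed together between iPSCs and ESCs, along with medium for 2i iPSCs and cell state for partial iPSCs. Within each comparison these cannot be told apart.

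Collagens are secreted or membrane-bound matrix proteins whose chains wind into a shared helix. Fibrillar collagens, led by types I and III in connective tissue, form the cable-like fibrils that fibroblasts lay down, while type IV chains form the sheet of the basement membrane and type VI chains form beaded filaments around cells. FACIT collagens attach to fibril surfaces, transmembrane collagens sit in the cell membrane, and multiplexins such as Col18a1 lie in basement membranes. Fibroblasts are rich in fibrillar and type VI collagens, and early embryonic cells are known mainly for type IV. By type, the 42 members were 11 fibrillar, 6 type IV, 5 type VI, 9 FACIT, 4 transmembrane, 2 multiplexin and 3 short chain collagens, with Col7a1 of anchoring fibrils and Col26a1 besides.

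The deposited values fell into 2 blocks of 7 arrays that looked separately normalized. Array means were 6.09 in the block of MEFs, 2i iPSCs, ESCs and untreated partial iPSCs, and 5.87 to 5.88 in the block of transduced 2B1 cells, so tests stayed within the first block. Pluripotency markers bore out the labels: 7 of 8 were called higher in 2i iPSCs than in partial iPSCs and 8 of 8 in ESCs than in partial iPSCs (limma, adjusted p below 0.05). Nanog, a pluripotency transcription factor, read 12.38 and 12.57 in 2i iPSCs, 13.12 and 12.54 in ESCs, and 3.85 and 4.36 in partial iPSCs. The log2 summed level of 12 fibroblast markers was 15.98 in MEFs, 14.32 to 14.33 in 2i iPSCs, 10.62 to 12.27 in ESCs and 14.30 to 14.53 in partial iPSCs.

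Of the 42 members, 28 had a signal of at least 5.42, the median over the table, on 2 or more of the 14 arrays and were tested, among 12663 tested genes. The other 14 were not tested: Col4a3, Col4a4, Col6a5, Col8a2, Col10a1, Col11a2, Col12a1, Col14a1, Col15a1, Col17a1, Col19a1, Col22a1, Col23a1 and Col24a1. Col4a4, Col6a5 and Col24a1 lay below the 25th percentile of every array. The log2 of the summed signal of all 42 members was 16.53 in MEFs, 14.04 and 14.18 in 2i iPSCs of 2B1 and 5C5, 11.99 and 11.74 in Nanog-GFP and EBRTcH3 ESCs, and 13.15 and 12.70 in untreated 2B1 and 5C5. It was highest in MEFs, and the 2 arrays of each of the other states lay apart from those of the others. Such a sum rests on its brightest members, which were Col1a2 in MEFs (14.52) and Col18a1 in ESCs (10.51 and 10.82). In such bulk samples, fewer cells that express a gene and less RNA per cell cannot be told apart.

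**Figure D1:**
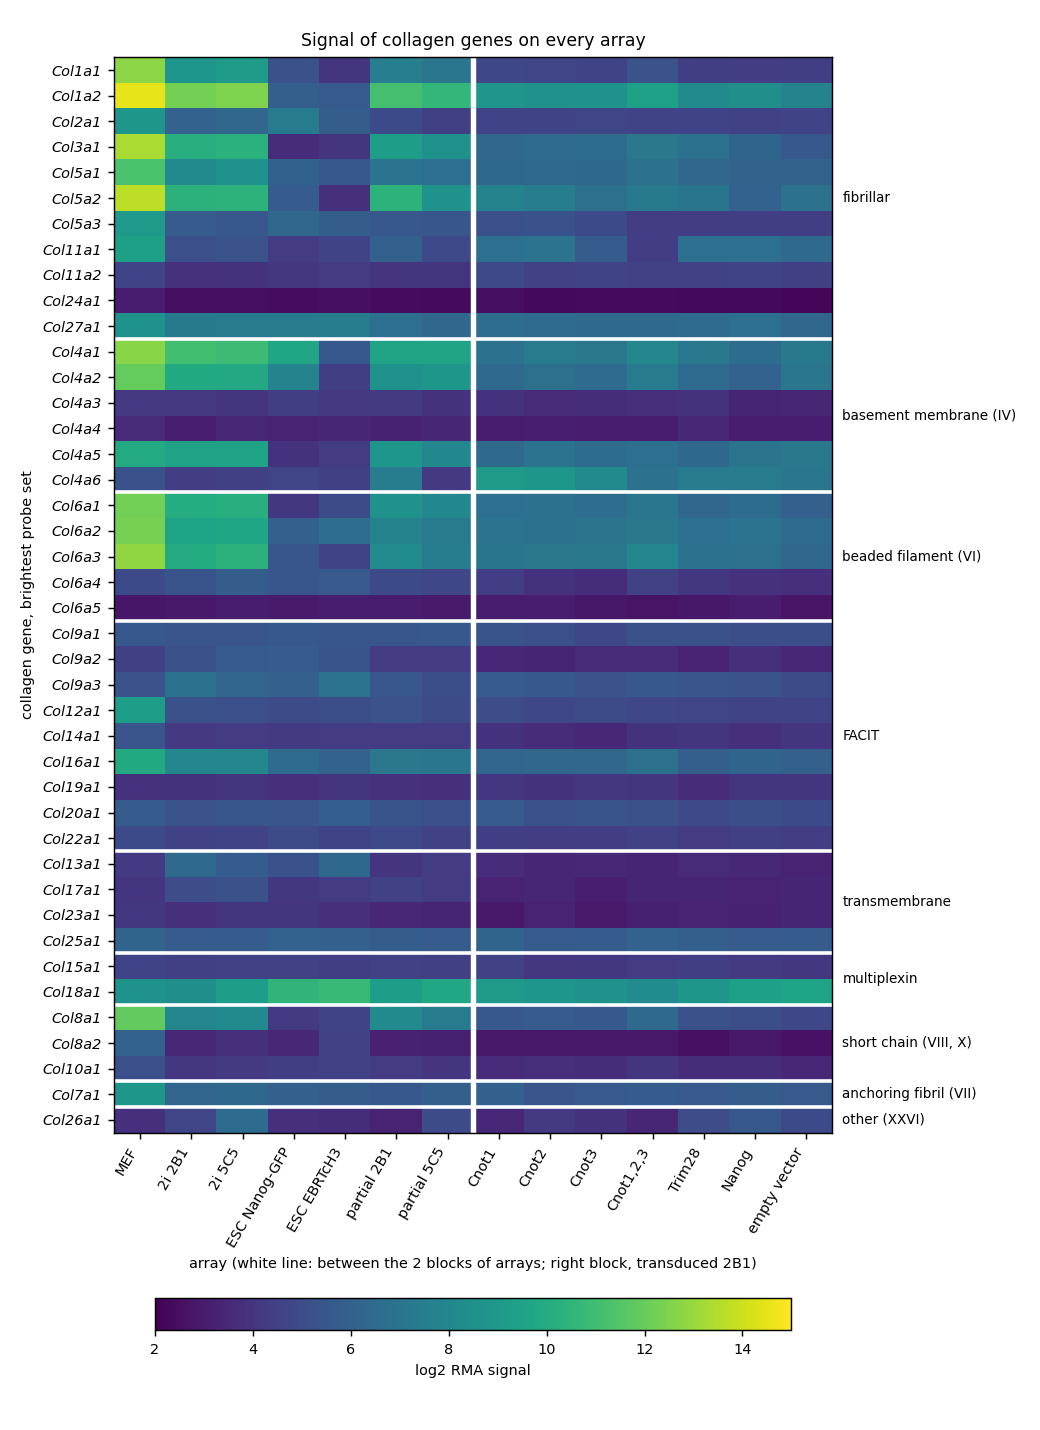
Log2 signal of the 42 collagen genes (vertical axis, grouped by type) on the 14 arrays (horizontal axis), with colour from dark (low) to yellow (high) and a white line between the 2 blocks of arrays that looked separately normalized. Col1a2, Col3a1, Col5a2 and the type VI chains Col6a1 to Col6a3 are bright in MEFs (12.24 to 14.52), lower in 2i iPSCs and dark in ESCs, while Col18a1 reads 10.51 and 10.82 in ESCs, against 8.70 in MEFs.

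The first comparison asked what changed when partial clones were converted under 2i. The fibrillar chains Col1a2 and Col5a1 (2 of 9 tested) and the type VI chains Col6a2 and Col6a3 (2 of 4 tested) rose 2.84- to 4.82-fold after conversion, and no collagen was called lower. That was 4 of 28 tested members higher (limma, Benjamini-Hochberg adjusted p below 0.05), against 3.55% of all tested genes, and 0 lower, against 2.46%. At an unadjusted p below 0.05, 16 members were higher and 0 lower. The share of all tested genes past that unadjusted threshold, or with a positive difference, is not given. This holds for the later comparisons and lists as well. The median log2 difference was 0.48 over all 42 members and 1.08 over the 28 tested, beside 0.03 for all tested genes, and 31 of the 42 were positive. The calls rested on every compared array: without any 1 of the 4 (2B1 or 5C5, 2i or untreated), 0 collagens were called higher, and without untreated 5C5 Col4a6 was called lower. Without either ESC array, which only lend their spread to the fit, 12 were called higher. With the clone as a block, which pairs the arrays, 3 were called (Col6a2, Col4a1 and Col26a1), and Col1a2, Col5a1 and Col6a3 had adjusted p-values of 0.0691, 0.0554 and 0.058.

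In the second comparison, ESCs served as the genuine pluripotent state. Of the tested members, 4 of 9 fibrillar (Col1a1, Col1a2, Col3a1 and Col5a2), 1 of 4 type IV (Col4a5), 3 of 4 type VI (Col6a1, Col6a2 and Col6a3) and the short chain Col8a1 fell in ESCs relative to partial iPSCs. The measured folds ran between 2.38 for Col6a2 and 33.5 for Col3a1, whose ESC readings were near background, so that its fold may be too small. Col9a2 was the 1 collagen called higher. The 9 lower members of 28 stood against 9.82% of all tested genes lower, and the 1 higher against 6.09% higher (limma, adjusted p below 0.05). At an unadjusted p below 0.05, 11 members were lower and 7 higher. The median was 0.01 over all 42 members and -0.88 over the 28 tested, beside 0.00 for all tested genes. Col1a2, Col3a1, Col4a5, Col6a1, Col6a3 and Col8a1 were called under all alternatives run. Col1a1, Col5a2, Col6a2 and Col9a2 were not called without untreated 2B1, without either 2i array, or with the 4 compared arrays alone. Col6a2 and Col9a2 were also lost without untreated 5C5 or without Nanog-GFP ESCs. Col6a2 was further lost with quantile normalization, with centring on the median of tested genes and with no filter. The mean of probe sets and eBayes with trend and robust settings lost it too, and it was called in 4 of 15 alternatives.

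The third comparison asked what still separated 2i iPSCs from ESCs, and collagens of several types were higher after 2i. Col1a1, Col1a2, Col3a1, Col5a1, Col5a2, Col4a5, Col6a1, Col6a2, Col6a3, Col16a1 and Col8a1 were 3.25- to 94.3-fold higher in 2i iPSCs. Some ESC readings lay near background, as for Col3a1, Col4a5 and Col5a2, so those folds may be too small. The 11 of 28 tested members called higher stood against 3.69% of all tested genes, and 0 were lower, against 0.158% (limma, adjusted p below 0.05). At an unadjusted p below 0.05, 13 were higher and 1, Col18a1, was lower. The median was 0.04 over all 42 members and 1.23 over the 28 tested, beside 0.00 for all tested genes. Without either 2i array 0 collagens were called, and the highest adjusted p then ranged from 0.0594 for Col1a2 and Col3a1 to 0.228 for Col5a2. Without either ESC array Col4a1 and Col4a2 were called higher as well, and without EBRTcH3 ESCs Col5a2 was lost, leaving 12. The 3 comparisons share arrays, so each stands for its own pair of groups only.

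**Figure D2:**
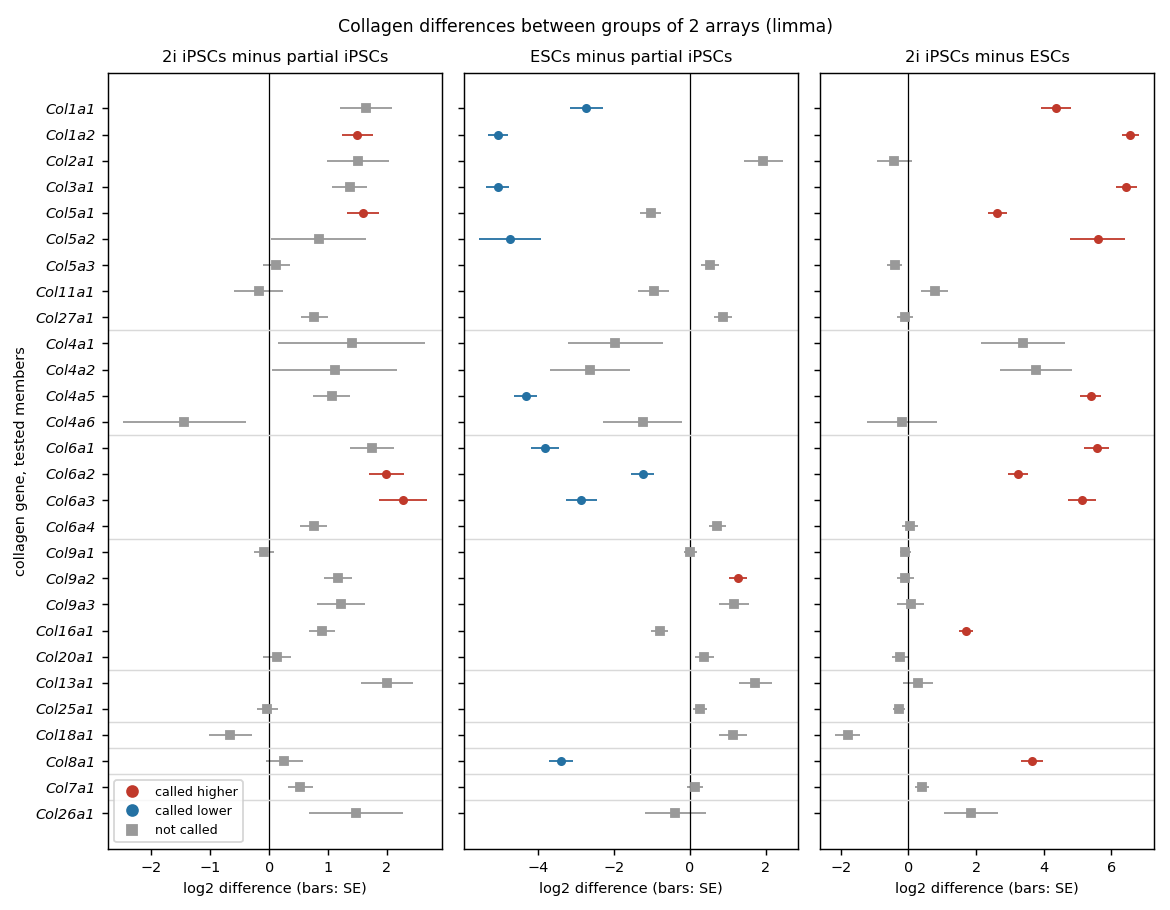
Log2 differences of the 28 tested collagen genes in 3 comparisons (panels: 2i iPSCs minus partial iPSCs, ESCs minus partial iPSCs, 2i iPSCs minus ESCs; 2 arrays per group), with bars of 1 standard error of limma. Red and blue points were called higher and lower, grey points were not called; 4, 1 and 11 were higher, and 0, 9 and 0 lower.

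Among the fibrillar collagens, Col1a2, which encodes the alpha 2 chain of type I collagen, read 12.28 and 12.50 in 2i iPSCs of 2B1 and 5C5, 5.96 and 5.70 in Nanog-GFP and EBRTcH3 ESCs, and 11.15 and 10.62 in untreated 2B1 and 5C5. The 3 pairs of arrays did not overlap, with 2i iPSCs on top and ESCs lowest. The difference was 1.50 (SE 0.26, adjusted p = 0.0376 by limma) for 2i over partial iPSCs, -5.05 (adjusted p = 0.0011) for ESCs over partial iPSCs, and 6.56 (adjusted p = 0.00199) for 2i iPSCs over ESCs. Col3a1, the chain of type III collagen, read 10.21 and 10.28 in 2i iPSCs, 3.63 and 3.98 in ESCs, and 9.22 and 8.52 in partial iPSCs. Its ESC readings were near the 25th percentile of those arrays (3.89), the level of background. Col3a1 was therefore at least 33.5-fold lower in ESCs than in partial iPSCs (adjusted p = 0.00147), while its 2.59-fold excess in 2i over partial iPSCs was not called (adjusted p = 0.0636, limma).

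The promoter sequences of Col1a2 and Col3a1 are shown because these genes had the largest differences between 2i iPSCs and ESCs. They are the 250 bases before each gene's start from RefSeq, build GRCm38.p6, on the + strand, at chr6:4505368-4505617 for Col1a2 and chr1:45311288-45311537 for Col3a1. Capitals mark matches, on either strand, to the TATA box (TATAAA), the CCAAT box (CCAAT) and the GC box (GGGCGG).
Col1a2: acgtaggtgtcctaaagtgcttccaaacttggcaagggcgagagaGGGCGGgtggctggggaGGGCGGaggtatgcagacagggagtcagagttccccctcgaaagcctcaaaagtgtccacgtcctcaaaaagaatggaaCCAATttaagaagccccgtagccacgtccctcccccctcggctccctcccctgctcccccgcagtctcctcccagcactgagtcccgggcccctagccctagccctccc
Col3a1: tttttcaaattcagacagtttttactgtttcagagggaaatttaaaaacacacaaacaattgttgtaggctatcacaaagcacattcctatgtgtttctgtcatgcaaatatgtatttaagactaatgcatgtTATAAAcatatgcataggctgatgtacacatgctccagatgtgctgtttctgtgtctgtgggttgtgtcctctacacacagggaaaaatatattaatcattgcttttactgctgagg
The Col1a2 window held 2 GC boxes and 1 CCAAT box and was 62% G or C, while the Col3a1 window held 1 TATA box and neither of the others and was 35.2% G or C. RefSeq windows were matched for 33 of the 42 members, 36 windows in all. Of the 36, 13.9% held a TATA box, 36.1% a CCAAT box and 58.3% a GC box, against 12.4%, 33.8% and 32.7% of all 32851 windows of that length. These matches describe the letters and are not binding sites.

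Col1a1, the other chain of type I collagen, read 8.81 and 9.12 in 2i iPSCs, 5.20 and 4.01 in ESCs, and 7.55 and 7.11 in partial iPSCs. It was 6.61-fold lower in ESCs than in partial iPSCs (adjusted p = 0.0173) and 20.6-fold higher in 2i iPSCs than in ESCs (adjusted p = 0.00953, limma), and its 3.11-fold excess in 2i over partial iPSCs was not called (adjusted p = 0.0992). Col5a1, a type V chain that regulates fibril diameter, read 8.23 and 8.63 in 2i iPSCs, 6.06 and 5.52 in ESCs, and 6.93 and 6.75 in partial iPSCs. It rose by 1.59 in 2i iPSCs relative to partial iPSCs (SE 0.27, adjusted p = 0.0376) and by 2.63 relative to ESCs (adjusted p = 0.0107, limma). Col5a2, its partner chain, read 10.36 and 10.41 in 2i iPSCs, 5.77 and 3.82 in ESCs, and 10.39 and 8.69 in partial iPSCs. The 2i reading of 2B1 fell within the range of the untreated clones, and the difference between 2i and partial iPSCs was 0.84 (95% interval -1.22 to 2.91). Col5a2 was 26.8-fold lower in ESCs than in partial iPSCs (adjusted p = 0.0211, limma). Its EBRTcH3 reading of 3.82 lay below the 25th percentile of that array (3.89), so this fold may be too small.

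The other tested fibrillar members were not called in any of the 3 comparisons. Col2a1, the collagen of cartilage, read 6.09 and 6.27 in 2i iPSCs, 7.35 and 5.85 in ESCs, and 4.90 and 4.44 in partial iPSCs. Both pluripotent states read above the partial clones, by 1.51 in 2i iPSCs (adjusted p = 0.158) and 1.93 in ESCs (adjusted p = 0.0647), and neither difference was called by limma. Col27a1 read 7.27 and 7.30 in 2i iPSCs, 7.29 and 7.48 in ESCs, and 6.74 and 6.29 in partial iPSCs, with differences of 0.77 (adjusted p = 0.122) and 0.87 (adjusted p = 0.0617) from partial iPSCs. Over the 9 tested fibrillar members, 2 were higher in 2i than in partial iPSCs, 4 fell in ESCs relative to partial iPSCs, and 5 were higher in 2i iPSCs than in ESCs.

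Type IV collagen showed a split by chain. Col4a5 read 9.50 and 9.51 in 2i iPSCs, 3.91 and 4.32 in ESCs, and 8.81 and 8.08 in partial iPSCs. Its readings in ESCs were 20.2-fold lower than in partial iPSCs (adjusted p = 0.00221) and the gene was 42-fold higher in 2i iPSCs than in ESCs (adjusted p = 0.00305, limma). The Nanog-GFP reading of 3.91 lay near the 25th percentile of that array (3.89), so these folds may be too small. Col4a6, whose gene lies head to head with Col4a5 on chromosome X, read 4.35 and 4.45 in 2i iPSCs, 4.70 and 4.47 in ESCs, and 7.49 and 4.18 in partial iPSCs. Only the untreated 2B1 array of these 6 was high, so the mean difference of -1.44 between 2i and partial iPSCs was not called (adjusted p = 0.469, limma).

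The annotated starts of Col4a5 and Col4a6 were 1343 bases apart in RefSeq, build GRCm38.p6, and both promoter windows are shown because the neighbours read so unlike each other. The windows are the 250 bases before each start, Col4a5 on the + strand at chrX:141475169-141475418 and Col4a6 on the - strand at chrX:141474077-141474326, with capitals as before (a GC box on the other strand reads CCGCCC).
Col4a5: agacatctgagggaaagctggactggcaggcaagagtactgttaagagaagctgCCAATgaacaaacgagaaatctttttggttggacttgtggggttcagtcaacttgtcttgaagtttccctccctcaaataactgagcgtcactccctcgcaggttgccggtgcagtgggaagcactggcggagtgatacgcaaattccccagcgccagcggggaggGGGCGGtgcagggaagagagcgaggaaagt
Col4a6: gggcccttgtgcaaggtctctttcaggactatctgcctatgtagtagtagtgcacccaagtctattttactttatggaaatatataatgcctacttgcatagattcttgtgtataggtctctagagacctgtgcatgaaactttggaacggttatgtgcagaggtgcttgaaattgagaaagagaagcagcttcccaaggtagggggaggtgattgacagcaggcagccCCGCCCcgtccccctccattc
The Col4a5 window held 1 CCAAT box and 1 GC box, and the Col4a6 window 1 GC box.

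Col4a1 and Col4a2, the chains of the common type IV network, are the other head-to-head pair, on chromosome 8, and their annotated transcripts overlap at the starts by 22 bases. Col4a1 read 11.06 and 10.91 in 2i iPSCs, 9.62 and 5.60 in Nanog-GFP and EBRTcH3 ESCs, and 9.58 and 9.58 in partial iPSCs. Col4a2 read 9.91 and 9.83 in 2i iPSCs, 7.82 and 4.42 in the same ESC lines, and 8.66 and 8.86 in partial iPSCs. In both genes 2i iPSCs lay above all other arrays of the fit, and the ESC lines lay apart by 4.01 for Col4a1 and 3.40 for Col4a2. That spread between the lines enters the error of every comparison: Col4a1 was 2.65-fold higher in 2i than in partial iPSCs with an adjusted p of 0.556 by limma over the 6 arrays, and of 0.046 with the clone as a block.

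**Figure D3:**
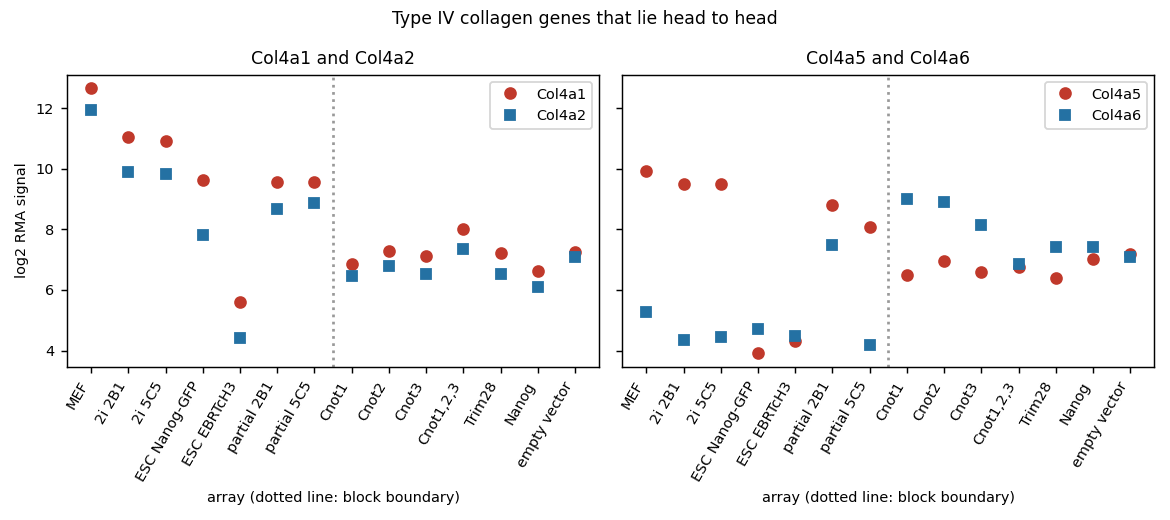
Log2 signal of Col4a1 and Col4a2 (left) and of Col4a5 and Col4a6 (right) on the 14 arrays, with a dotted line between the blocks that looked separately normalized. Col4a1 and Col4a2 move together from array to array, while Col4a6 is low wherever Col4a5 is above 9 and reaches 8.99 on the Cnot1 array. Both Col4a5 (3.91 and 4.32) and Col4a6 (4.70 and 4.47) are low in ESCs, and both are high in untreated 2B1 (8.81 and 7.49).

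Of the type VI chains, Col6a3, the long chain of the beaded filament, read 9.99 and 10.36 in 2i iPSCs, 5.46 and 4.63 in ESCs, and 8.29 and 7.52 in partial iPSCs. The groups did not overlap, and Col6a3 rose by 2.27 in 2i relative to partial iPSCs (SE 0.41, adjusted p = 0.0419), fell by 2.86 in ESCs relative to partial iPSCs (adjusted p = 0.0128) and was 35-fold higher in 2i iPSCs than in ESCs (adjusted p = 0.00516, limma). Col6a2 read 9.52 and 9.62 in 2i iPSCs, 6.01 and 6.65 in ESCs, and 7.81 and 7.36 in partial iPSCs. It was 3.97-fold higher in 2i than in partial iPSCs (adjusted p = 0.028) and 9.45-fold higher in 2i iPSCs than in ESCs (adjusted p = 0.00797, limma). Col6a1, its neighbour on chromosome 10, read 10.06 and 10.19 in 2i iPSCs, 4.11 and 5.01 in ESCs, and 8.66 and 8.09 in partial iPSCs. It was 14.1-fold lower in ESCs than in partial iPSCs (adjusted p = 0.00447), and its difference of 1.75 between 2i and partial iPSCs was not called (adjusted p = 0.0612, limma). Col6a4 stayed between 4.75 and 5.83 on the 6 arrays and was not called.

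In the 3 tested comparisons no tested FACIT collagen differed by more than 1.70. Col16a1, the brightest of them, read 8.0 and 8.03 in 2i iPSCs, 6.53 and 6.09 in ESCs, and 7.13 and 7.09 in partial iPSCs, and was called only between 2i iPSCs and ESCs among the 3 comparisons, 3.25-fold higher (adjusted p = 0.0189, limma). Col9a2, a type IX chain of cartilage fibrils, read 5.24 and 5.66 in 2i iPSCs, 5.72 and 5.37 in ESCs, and 4.32 and 4.24 in partial iPSCs. It was tested only because the readings of 5.66 and 5.72 reached 5.42. Both pluripotent states lay above the partial clones: Col9a2 rose 2.39-fold in ESCs (adjusted p = 0.0278), and its 2.25-fold excess in 2i iPSCs was not called (adjusted p = 0.0569, limma). Col9a3, another type IX chain, read 6.83 and 6.26 in 2i iPSCs, 6.00 and 6.96 in ESCs, and 5.51 and 5.14 in partial iPSCs, with no call, and Col9a1 stayed between 5.42 and 5.56. Col12a1 was not tested, because its brightest probe set reached 5.42 on 1 of 14 arrays, that of MEFs (9.31), and read 5.03 to 5.31 on the 6 arrays of the fit. A second probe set of Col12a1 read 6.31 and 5.94 in 2i iPSCs, 3.34 and 3.36 in ESCs, and 5.18 and 4.62 in partial iPSCs, so the probe sets of this gene disagreed.

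Among transmembrane collagens, Col13a1, found at cell adhesion sites, read 6.43 and 5.80 in 2i iPSCs, 5.28 and 6.39 in ESCs, and 3.97 and 4.26 in partial iPSCs. It lay above the partial clones on all 4 pluripotent arrays, by 2.00 in 2i iPSCs (adjusted p = 0.066) and 1.72 in ESCs (adjusted p = 0.0576), and limma called neither. Col25a1, the brightest of this type, stayed between 5.71 and 6.10 on the 6 arrays. Col18a1, the multiplexin whose fragment is endostatin, read 8.45 and 9.30 in 2i iPSCs, 10.51 and 10.82 in ESCs, and 9.27 and 9.81 in partial iPSCs. The highest reading was in ESCs, and the differences of -1.79 between 2i iPSCs and ESCs (adjusted p = 0.0755) and 1.13 between ESCs and partial iPSCs (adjusted p = 0.101) were not called by limma.

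Col8a1, a short chain collagen of vessel and corneal matrix, read 7.98 and 8.15 in 2i iPSCs, 4.22 and 4.60 in ESCs, and 8.19 and 7.42 in partial iPSCs. It was 10.5-fold lower in ESCs than in partial iPSCs (adjusted p = 0.00399) and 12.6-fold higher in 2i iPSCs than in ESCs (adjusted p = 0.00691, limma), while 2i and partial iPSCs overlapped with a difference of 0.26 (95% interval -0.55 to 1.07). Col7a1 of anchoring fibrils read 6.25 and 6.33 in 2i iPSCs, 5.98 and 5.81 in ESCs, and 5.58 and 5.93 in partial iPSCs, with no call. Col26a1 read 4.70 and 6.52 in 2i iPSCs of 2B1 and 5C5, 3.78 and 3.72 in ESCs, and 3.26 and 5.03 in untreated 2B1 and 5C5. On this brightest probe set both 5C5 arrays lay above the 2B1 array of the same medium, by 1.82 under 2i and 1.78 untreated. Its second probe set, dim at 3.03 to 3.20 on these clone arrays, showed no such gap. The 7 transduced arrays, all of 2B1, ran from 3.41 to 5.52 on the brightest set, in the block that looked separately normalized.

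Where a called collagen had further probe sets, all of these moved the same way. This held for 5 of 5 other sets in 2i over partial iPSCs, 9 of 9 in ESCs over partial iPSCs and 11 of 11 in 2i iPSCs over ESCs, though the differences could be smaller. For Col3a1 the second set differed by -1.47 between ESCs and partial iPSCs, beside -5.06 for the brightest. For Col1a2 the others differed by -4.57 and -0.34, beside -5.05.

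Arrays within a group differed for some collagens as well. Between the ESC lines, 5 of 28 tested members were at least 2-fold higher in Nanog-GFP than in EBRTcH3 ESCs, against 9.04% of all tested genes. These were Col1a1, Col2a1, Col4a1, Col4a2 and Col5a2. Col13a1 was the 1 tested member that was lower, against 6.77%, and Col8a2, which was not tested, was lower as well. Whether these counts depart from those shares was not tested. Some markers of other cells differed beside them. The summed log2 level of 12 fibroblast markers was 12.27 in Nanog-GFP and 10.62 in EBRTcH3 ESCs, and most of that sum was Vim (12.15 and 10.23). Pdgfrb read 6.36 and 5.18, and all other members of that list lay within 2-fold between the lines, Cd44 (2.93 and 2.92) and S100a4 (5.28 and 5.07) among them. Acta2, the smooth muscle actin, read 9.03 in Nanog-GFP and 5.60 in EBRTcH3 ESCs. The summed level of 10 endoderm markers was 9.20 on both, with Lama1 the brightest (7.78 and 8.29), while Gata6 read 6.57 in Nanog-GFP and 4.53 in EBRTcH3 ESCs. The part of other cells in these collagen readings was not tested. Between untreated clones, 3 of 28 tested members were at least 2-fold higher in 2B1 than in 5C5, against 4.41% of tested genes. These were Col4a6 (by 3.31), Col5a2 (by 1.70) and Col11a1 (by 1.15), and Col26a1 was lower, against 6.22%. Between the 2i iPSCs of the same clones, Col26a1 was the only member past 2-fold, lower in 2B1, against 1.25% of tested genes, and 0 members were higher, against 0.482%. All other members read within 2-fold of each other in the converted cells, with no test.

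Collagen chains need enzymes, chaperones and partners. For the list counts below, 3.55% of all tested genes were called higher and 2.46% lower in 2i than in partial iPSCs. In ESCs against partial iPSCs 6.09% were higher and 9.82% lower, and in 2i iPSCs against ESCs 3.69% were higher and 0.158% lower. Of 13 tested genes of procollagen modification, P4ha2, a proline hydroxylase subunit, rose by 1.39 in 2i relative to partial iPSCs (adjusted p = 0.0206, limma). P4ha2 read 8.19 and 8.02 in 2i iPSCs, 6.37 and 6.34 in ESCs, and 6.79 and 6.63 in partial iPSCs. P3h4 was the 1 lower member of this list, by 1.99 in 2i relative to partial iPSCs (adjusted p = 0.0232, limma). Between ESCs and partial iPSCs, 4 of 13 were lower (P4ha1, P3h2, P3h3 and P3h4) and 0 higher, and between 2i iPSCs and ESCs 2 were higher (P4ha2 and P3h4) and 0 lower. P4hb, the brightest member, read 12.22 and 12.19 in 2i iPSCs, 11.73 and 11.13 in ESCs, and 12.04 and 12.04 in partial iPSCs, with no call. Of 8 tested folding and secretion genes, limma called 0 in 2i against partial iPSCs (3 higher and 0 lower at an unadjusted p below 0.05), and 1, Klhl12, was higher in ESCs than in partial iPSCs by 0.90 (adjusted p = 0.041). Serpinh1, the collagen chaperone, read 11.41 and 11.42 in 2i iPSCs, 10.64 and 9.40 in ESCs, and 10.80 and 12.12 in partial iPSCs, overlapping between 2i and partial iPSCs.

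Lox, the lysyl oxidase that crosslinks collagen, read 8.91 and 8.71 in 2i iPSCs, 4.70 and 4.59 in ESCs, and 7.51 and 7.15 in partial iPSCs. It rose by 1.48 in 2i relative to partial iPSCs (adjusted p = 0.0256) and fell by 2.68 in ESCs relative to partial iPSCs (adjusted p = 0.00286, limma). Of 8 tested processing and crosslinking genes, 1 was higher and 0 lower in 2i than in partial iPSCs, 5 were lower and 0 higher in ESCs than in partial iPSCs (Bmp1, Lox, Loxl1, Loxl3 and Loxl4), and 3 were higher and 0 lower in 2i iPSCs than in ESCs. The medians of this list were 0.13, -2.40 and 2.53, beside 0.03, 0.00 and 0.00 for all tested genes.

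Among 5 tested collagen receptors, Ddr2 read 8.64 and 9.52 in 2i iPSCs, 4.71 and 3.92 in ESCs, and 9.14 and 9.92 in partial iPSCs. Ddr2 (-5.21), Mrc2 (-3.70) and Itgb1 (-1.72) fell in ESCs relative to partial iPSCs (limma, adjusted p from 0.00295 to 0.00778), and 0 receptors were called in 2i against partial iPSCs (1 higher and 1 lower at an unadjusted p below 0.05). Ddr2 and Mrc2 were higher in 2i iPSCs than in ESCs. Of 6 tested collagen-degrading proteases, Mmp13 fell by 2.61 in 2i relative to partial iPSCs (adjusted p = 0.0139, limma), reading 4.04 and 3.67 in 2i iPSCs, 3.14 and 2.86 in ESCs, and 6.77 and 6.17 in partial iPSCs. Mmp3 and Mmp13 fell in ESCs relative to partial iPSCs, and Mmp3 and Mmp14 were higher in 2i iPSCs than in ESCs. Of 7 tested fibril partners, Postn rose by 1.96 (adjusted p = 0.0139) and Thbs1 fell by 1.72 (adjusted p = 0.0227) in 2i relative to partial iPSCs, 4 fell in ESCs relative to partial iPSCs, and 5 were higher in 2i iPSCs than in ESCs. Bgn, the proteoglycan biglycan, was the member with the largest difference from ESCs in this list, 7.08 higher in 2i iPSCs (adjusted p = 0.00199, limma). Fn1, fibronectin, read 12.51 and 12.68 in 2i iPSCs, 11.88 and 12.85 in ESCs, and 12.55 and 13.27 in partial iPSCs, with no call.

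Fibroblast markers moved beside the collagens in the comparisons with ESCs. Of 11 tested, 9 were lower and 0 higher in ESCs than in partial iPSCs, 8 were higher and 0 lower in 2i iPSCs than in ESCs, and 1 was lower (Tbx15, by 3.66) and 0 higher in 2i than in partial iPSCs (limma, adjusted p below 0.05). In 2i against partial iPSCs 5 were higher and 2 lower at an unadjusted p below 0.05, and the median was 0.58, beside 0.03 for all tested genes. Pdgfrb (1.88, adjusted p = 0.089) and Thy1 (1.07, adjusted p = 0.147) had the largest positive differences there and were not called by limma. Cd44, the cell surface receptor for hyaluronan, read 11.12 and 11.27 in 2i iPSCs, 2.93 and 2.92 in ESCs, and 11.74 and 11.72 in partial iPSCs. Pdgfra read 9.67 and 9.49 in 2i iPSCs, 5.03 and 4.81 in ESCs, and 9.24 and 8.76 in partial iPSCs. Of 8 tested endoderm markers, 1 was called higher in 2i than in partial iPSCs, Afp by 1.13 (adjusted p = 0.0486, limma). At an unadjusted p below 0.05, 5 were higher and 0 lower, and the median was 1.17, beside 0.03 for all tested genes, with Gata6 at 2.23 (adjusted p = 0.134) and Amn at 1.61 (adjusted p = 0.0539, limma). Dab2 was lower in ESCs than in partial iPSCs and Afp higher in 2i iPSCs than in ESCs, while the summed level of 10 endoderm markers was 10.73 and 9.78 in 2i iPSCs, 9.20 and 9.20 in ESCs, and 10.40 and 8.83 in partial iPSCs. Of 3 tested smooth muscle and bone markers, limma called 0 in the 3 comparisons (1 higher in 2i iPSCs than in ESCs at an unadjusted p below 0.05, and 0 in the others). The part of a mixture of cells in the collagen differences was not tested.

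MEFs held the highest collagen levels. Their 1 array allows no test, and a member was counted when MEFs differed at least 2-fold in the same direction from both arrays of another state. By that rule 21 of 42 members were higher in MEFs than in partial iPSCs and 0 were lower. Of the 28 tested members 18 were higher, against 9.9% of all tested genes, and 0 lower, against 11.3%. Against 2i iPSCs 20 were higher, 17 of them tested (11.5% of tested genes), and 2 lower, 1 of them tested (16.8%). Against ESCs 21 were higher, 18 of them tested (15.4%), and 2 lower, 2 of them tested (15.2%). Col1a1 read 12.73 in MEFs, 3.76 above the mean of 2i iPSCs, 8.12 above ESCs and 5.40 above partial iPSCs. Col3a1 read 13.37 in MEFs, 3.13 above 2i iPSCs, 9.57 above ESCs and 4.50 above partial iPSCs. Col4a5 was the member among the 21 that was not past 2-fold against 2i iPSCs, at 9.94 in MEFs and 0.43 above the 2i mean. The lower members were Col13a1 (4.19 in MEFs) against both 2i iPSCs and ESCs, Col17a1 (4.02) against 2i iPSCs and Col18a1 (8.70) against ESCs. MEFs also held the highest fibroblast marker sum.

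Introduction of Ccr4-Not subunits, Trim28 or Nanog into 2B1 was read against the empty vector array, with 1 array per factor and no test. The Cnot proteins belong to Ccr4-Not, which shortens the poly(A) tail of mRNAs, and Trim28 silences genes as a corepressor. The Cnot123 array showed the most collagens past 2-fold, all of them among the 28 tested members. It had 5 higher (Col1a2, Col3a1, Col6a1, Col6a3 and Col8a1), against 3.72% of tested genes. It had 3 lower (Col11a1, Col18a1 and Col26a1), against 8.43%. The 5 became 3 with the mean of a gene's probe sets, and 2 with the median of the other 6 transduced arrays as the control. Col6a3 read 8.01 on the Cnot123 array, 6.82 to 7.20 on the arrays of the 5 other factors, and 6.30 with empty vector. Col1a2 read 9.45 on the Cnot123 array, 8.20 to 8.76 with the other factors and 7.79 with empty vector. Col11a1 read 4.35 on the Cnot123 array, 5.77 to 6.97 with the other factors and 6.45 with empty vector. Without replicates, whether these gaps exceed the spread between cultures cannot be known.

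Single factors moved fewer members. Col4a6 read 8.99 with Cnot1, 8.90 with Cnot2, 8.16 with Cnot3, 6.85 with Cnot123, 7.43 with Trim28, 7.42 with Nanog and 7.10 with empty vector, so the 3 single subunits lay highest and their combination lowest. It was the 1 member at least 2-fold higher with Cnot1 (4.15% of tested genes) and with Cnot2 (2.87%), and 1 of 2 with Cnot3 (2.49%), Col3a1 being the other. Col26a1 was the 1 member at least 2-fold lower with Cnot1 (5.87%) and with Cnot3 (5.19%), and 0 were lower with Cnot2 (3.89%). Trim28 had 1 higher, Col3a1 (0.963%), and 0 lower (1.52%). Nanog had 0 higher (0.561%) and 0 lower (0.869%), with Col4a2 at -1.0, just inside the limit.

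**Figure D4:**
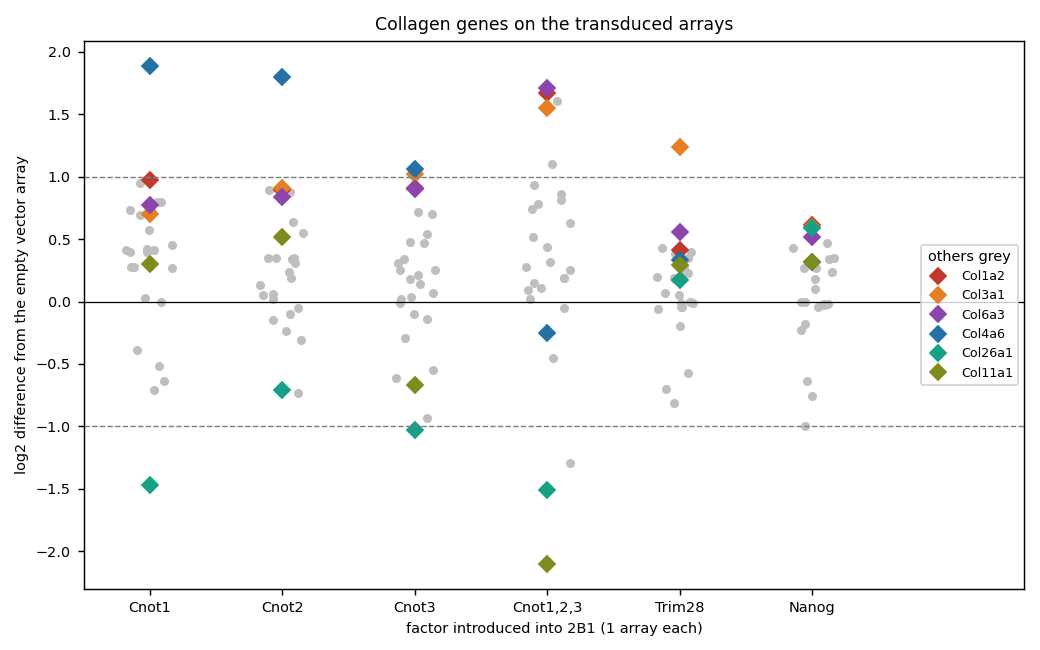
Log2 difference of each of the 28 tested collagen genes from the empty vector array (vertical axis) for 6 introduced factors (horizontal axis, 1 array each), with dashed lines at a 2-fold difference. Col4a6 is 1.89, 1.80 and 1.06 higher with Cnot1, Cnot2 and Cnot3, and Col11a1 is 2.10 lower with the 3 together.

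The shared control array was itself low for collagens. Among the 28 tested members, the empty vector array was the lowest of the 7 transduced arrays for 10 (35.7%, against 15% of all tested genes), and the Cnot123 array was the highest for 12 (42.9%, against 23.7%). The summed collagen level was 11.77 with Cnot1, 11.72 with Cnot2, 11.51 with Cnot3, 11.77 with Cnot123, 11.42 with Trim28, 11.49 with Nanog and 11.44 with empty vector. Its brightest member was Col18a1 with empty vector (9.55) and Col1a2 with Cnot123 (9.45). Fibroblast markers summed to 13.82 on the Cnot123 array and 13.26 with empty vector. Single markers of that list went both ways: S100a4 read 11.65 with Cnot123 and 9.49 with empty vector, Twist2 6.58 and 4.70, Thy1 7.11 and 5.86, and Pdgfra 7.61 and 6.37. Lower with Cnot123 were Twist1 (6.39, against 8.03 with empty vector), Snai2 (6.93, against 8.18) and Tbx15 (9.77, against 10.80). Their part in the collagen values was not tested. Nanog read 3.12 to 4.25 on all 7 arrays, far below the 2i iPSCs, and 3.12 on the Nanog array itself, where the probe set need not read an introduced cDNA.

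Set across the blocks that looked separately normalized, the empty vector array of 2B1 lay below untreated 2B1. At least 2-fold lower were 15 of 42 members, 14 of them among the 28 tested, against 12.1% of all tested genes. Only Col26a1, a tested member, was higher, against 4.68%. The median difference of the tested collagens was -1.0, beside -0.27 for all tested genes. Col3a1 read 5.60 with empty vector and 9.22 in untreated 2B1, Col1a2 read 7.79 and 11.15, and Col5a2 read 6.83 and 10.39. These 3 chains read lower on all 7 transduced arrays than in the untreated clone, and normalization block, transduction and culture cannot be told apart.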

How the data were processed

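The authors deposited log2 probe set summaries, made with RMA and the affy package per the submitters' processing notes; their versions and settings are not given in the sources used. Probe sets were assigned to genes by the platform annotation, and each gene was read from its brightest set. Among the collagens, 15 had 1 probe set and 27 several. Genes were tested if at least 2 of 14 arrays reached 5.42, the median of the table. The 6 arrays of 2i iPSCs, ESCs and untreated partial iPSCs were fitted by lmFit and eBayes of limma 3.58.1 (R 4.3.3, 3 residual and 2.25 prior degrees of freedom), two-sided, with Benjamini-Hochberg adjustment over 12663 genes and calls at 0.05. The fit was tested on simulated data. The 2 arrays of a group were separate clones or lines, so p-values measure that spread. Clones pair untreated and 2i arrays; deviations of the same clone correlated at 0.11. The number of arrays limits precision.

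Named collagens were those called in any comparison, the brightest of each type, Col1a2, Col3a1, Col4a1 and Col6a3, and up to 5 per unreplicated array past 2-fold; of the other lists, up to 4 called members per comparison and the brightest. Members and lists were chosen with earlier results of these data known, and Col2a1, Col4a2, Col7a1, Col9a1, Col9a3, Col12a1, Col13a1, Col17a1, Col27a1 and Col6a4, with some list genes, were named after their values were seen. Promoters came from RefSeq (GRCm38.p6). Alternatives changed the block, samples, normalization, filter, probe set summary and eBayes settings, or left out an array.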

Additional observations from a re-analysis of the deposited data

Results flagged for a closer look

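In 3 of the 28 tested collagens, the changes of the clones under 2i had opposite signs and lay at least 2-fold apart. The share of all tested genes past this rule is not given. These are also the 3 members at least 2-fold higher in untreated 2B1 than in untreated 5C5. Both observations therefore rest on the same untreated arrays. The difference between the clones, 2i minus untreated in 2B1 less the same in 5C5, was -3.41 for Col4a6, -1.74 for Col5a2 and -1.28 for Col11a1 on the log2 scale. Col4a6 read 4.35 under 2i and 7.49 untreated in 2B1, and 4.45 under 2i and 4.18 untreated in 5C5. Col5a2 was level in 2B1 (10.36 under 2i and 10.39 untreated), so its opposite sign rests on a change of -0.03. In 5C5 it read 10.41 under 2i and 8.69 untreated. The difference was not tested, because each clone had 1 array per medium.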

How the results depend on the processing

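Called collagens kept their direction under all alternatives run, but several counts moved. For 2i over partial iPSCs, 4 were higher; the paired fit with a replicate block for the clone gave 3, the 4 compared arrays alone gave 12, and leaving out 1 array gave 0 to 12 higher and 0 to 1 lower. For ESCs over partial iPSCs, the 1 higher became 0 with the 4 compared arrays or a stricter filter, 2 with quantile normalization or the mean of probe sets, 4 with centring on the median of tested genes, which was chosen after seeing the data, and 0 to 2 with 1 array left out. That centring removes a shift of -0.17 between ESCs and partial iPSCs and of 0.15 between 2i iPSCs and ESCs. For 2i iPSCs over ESCs, leaving out 1 array gave 0 to 13 higher, against 11, and the mean of probe sets called 1 lower, Col18a1. With 1 array left out, the remaining array of its group is assumed to vary like the others. Against the empty vector, the mean of probe sets gave 0 lower for Cnot1, 0 higher and 0 lower for Cnot3, 0 higher for Trim28 and 3 higher for Cnot123. With the median of the other 6 transduced arrays as the control, also chosen after seeing the data, Cnot3 had 0 higher and 0 lower, Cnot123 had 2 higher, and Nanog had 1 higher and 1 lower. Genes near background, such as Col3a1 in ESCs, limit how precisely a fold can be read.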
